A study of Mus musculus with 8 samples.

Results

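Oxidative phosphorylation in the mouse colon was followed through 94 nuclear genes, out of the 17353 genes of the count table. They were chosen by name: every gene whose symbol starts with Nduf, Uqcr, Atp5 or Cox4 to Cox8, together with Sdha, Sdhb, Sdhc and Sdhd, with at least 10 counts summed over the 8 libraries. Of 95 symbols that matched, Cox6a2 with 6 counts was left out, and Cox4i2 with 11 counts was the member just inside the limit. Structural subunits made up 81 of the 94 members: 37 of complex I, 4 of complex II, 8 of complex III, 15 of complex IV and 17 of complex V. The other 13 were 8 assembly factors of complex I (the Ndufaf genes), 4 gene copies (Ndufab1-ps, Ndufb4b, Ndufb4c and Ndufs6b) and Cox7a2l, which joins complexes III and IV into supercomplexes. Of the 94 members, 92 passed the filter on low counts, and Cox4i2 and Ndufa4l2 did not.

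Complexes I and II pass electrons from NADH and succinate to ubiquinone, complex III passes them to cytochrome c, and complex IV hands them to oxygen. Complexes I, III and IV pump protons as they work, and complex V, the ATP synthase, uses the proton gradient to make ATP. In the colon the differentiated epithelium depends on this pathway to burn butyrate made by gut bacteria, and impaired mitochondrial respiration of the epithelium is a known feature of colitis. Most subunits are encoded in the nucleus and imported, and a small set that is encoded in mitochondrial DNA is not analysed here.

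Male C57BL/6J mice, wild type, gave the colonic mucosa from which RNA was sequenced, with 2 animals in each of 4 groups, all taken on day 7. Colitis came from 3% dextran sulfate sodium (DSS) in the drinking water, a detergent-like polymer that injures the epithelium. The control group had no DSS and a saline enema, and the DSS model group had DSS and a saline enema. The sample labels do not name DSS, and that the treated groups had it was read from the series' design text. The mesalazine group had DSS and an enema with 50 mg/kg of mesalazine, a standard aminosalicylate medicine of ulcerative colitis, and the Kuiyangling group had DSS and an enema of Kuiyangling, a traditional Chinese herbal preparation, at 10 g/kg. Every enema had a volume of 0.2 ml. The study asked how Kuiyangling acts on the inflamed colon. With 2 animals a group, the tests rest on a spread between animals pooled over the 4 groups.

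The libraries held 15560946 to 17843715 counts. Epithelial identity of the tissue was present in every library: all 16 epithelial markers had counts in all 8, at a summed level of 31623 to 43198 CPM (counts scaled by library size). Neutrophil markers summed to 1.09 and 1.85 CPM in the controls and to 11.6 to 86.9 CPM in the 6 DSS-treated animals. The second control stood apart with 1188 CPM of B and plasma cell markers against 112 to 267 CPM in the other 7 libraries. The first mesalazine library stood apart in 2 other ways: ribosomal protein genes took 12.7% of its counts, against 3.35% to 6.68% elsewhere, and its counts leaned most strongly toward short genes. In bulk tissue, fewer cells of a type and less RNA per cell cannot be told apart.

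Promoters of these genes are known for sites of NRF1, GABP (an ETS factor) and YY1, so the stretch before the start site is shown for 1 subunit of each complex: the one of highest level with a single start in the table and such a motif there. Genes on 1 chromosome were left out of this choice, so a subunit of higher level may exist there. The 120 bases that precede the start were read from RefSeq on GRCm38.p6, 5′ to 3′ on the gene's strand, with the motif found in capitals. Sdhd and Cox6a1 hold the NRF1 motif on the strand printed and Ndufs6 holds it on the other strand, and Uqcrh and Atp5h hold the ETS motif on the other strand.
Ndufs6 (complex I), chr13:73328483-73328602, minus strand: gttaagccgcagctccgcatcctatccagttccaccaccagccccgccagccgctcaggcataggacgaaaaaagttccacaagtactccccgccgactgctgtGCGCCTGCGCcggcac
Sdhd (complex II), chr9:50603850-50603969, minus strand: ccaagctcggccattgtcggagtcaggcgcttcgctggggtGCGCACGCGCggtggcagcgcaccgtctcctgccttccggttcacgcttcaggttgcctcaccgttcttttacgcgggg
Uqcrh (complex III), chr4:116075071-116075190, minus strand: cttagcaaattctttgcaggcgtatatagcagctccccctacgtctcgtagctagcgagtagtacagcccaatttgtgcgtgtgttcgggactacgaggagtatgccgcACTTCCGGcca
Cox6a1 (complex IV), chr5:115348959-115349078, minus strand: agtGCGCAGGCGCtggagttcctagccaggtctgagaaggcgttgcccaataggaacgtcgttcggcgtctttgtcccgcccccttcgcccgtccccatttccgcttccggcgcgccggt
Atp5h (complex V), chr11:115419920-115420039, minus strand: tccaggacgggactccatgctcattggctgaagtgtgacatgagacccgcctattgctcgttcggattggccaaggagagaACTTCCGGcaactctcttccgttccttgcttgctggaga

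A promoter was matched by symbol for 76 of the 94 members, giving 81 windows of 250 bases before to 50 bases after a start. On either strand, the NRF1 motif (GCGCA and GCGC with any base between them) was in 20 member windows (24.7%), against 4.6% of all 32851 windows. The YY1 motif ATGGCGGC was in 9.88% of member windows against 2.24%, and the ETS motif CCGGAAGT in 6.17% against 3.89%. At least 1 of the 3 was in 38.3% of member windows against 9.89% of all. These are matches of letters, and the motifs were chosen as those known for this gene class.

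Per length, in the deposited FPKM (which divide by gene length and library size), complexes IV and V were the most abundant. Summed over its 15 subunits, complex IV stood at 7133 and 6676 FPKM in the controls, 10424 and 12734 in the DSS model, 16335 and 8827 with mesalazine, and 9807 and 8457 with Kuiyangling. Complex V summed to 6869 ± 969 FPKM in the controls and 10000 ± 1515 in the DSS model (SD, n = 2), and complex I to 4925 ± 648 and 7980 ± 1295. Complex II, with only 4 subunits, summed to 884 ± 165 and 1125 ± 87.3 FPKM. In complexes I, III and IV the 3 highest members were all under 1000 bases. Cox8a had the highest mean over all libraries at 1514 FPKM, followed by Cox4i1 at 1416, Cox6a1 at 1410 and Cox6c at 1130, and Atp5j2 led complex V at 1088, ahead of the large catalytic beta subunit Atp5b at 1013. In complex III the hinge protein Uqcrh led at 897 FPKM, and in complex I the accessory subunit Ndufa6 led at 598. Cox4i2 lay at 0.113 FPKM.

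The members were higher in the DSS model than in the controls in nearly every case, but none passed the test. The median log2 difference over the 92 tested members was 0.85, against -0.04 over all 13381 genes tested, and 90 of the 92 estimates lay above 0, as did 47.5% of all genes. The 2 animals of the DSS model lay above both controls for 88 members and below both for 2, where 27.1% of all genes tested were higher and 26.3% lower in that sense. edgeR's quasi-likelihood test called 0 of 92 members when p was adjusted by Benjamini-Hochberg and held to 0.05, with 0.247% of all genes called. At an unadjusted p under 0.05 it had 43 members higher and 0 lower, against 7.63% and 7.22% of all genes. DESeq2 and limma on log2(FPKM + 1) also called 0 members, where they called 3.46% and 0.142% of all genes. In either direction, 57 members were under the unadjusted threshold in DESeq2 and 26 in limma, against 16% and 14.2% of all genes.

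Other measures also differed between the groups. The members took 2.24% and 1.87% of the counts in the controls, 2.72% and 3.28% in the DSS model, 3.86% and 2.43% with mesalazine, and 2.55% and 2.45% with Kuiyangling. In the same order, the 16 epithelial markers summed to 31623 and 35413, 42075 and 39640, 43198 and 35479, and 39187 and 32960 CPM. Ribosomal protein genes took 4.06% and 3.35%, 4.14% and 6.68%, 12.7% and 5.77%, and 5.31% and 5.03%. Fibroblast markers (6 of 6 with counts in every library) summed to 31.5 and 10.2, 74.4 and 121, 143 and 82.2, and 201 and 158 CPM. Erythroid markers (5 of 5) summed to 7.73 and 2.22, 19.9 and 76.2, 80.1 and 51.95, and 54.7 and 42.8 CPM. Epithelial markers were higher in both DSS animals than in both controls, and the fibroblast and erythroid markers were higher in all 6 DSS-treated animals. Fibroblast markers were highest with Kuiyangling, where the members were lower than in the DSS model. Markers of macrophages, B and plasma cells, T cells, smooth muscle, skeletal muscle, adipocytes and endothelium overlapped between controls and DSS model. The marker sums were not corrected for gene length. The part of these measures in the members' difference was not tested.

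**Figure D1:**
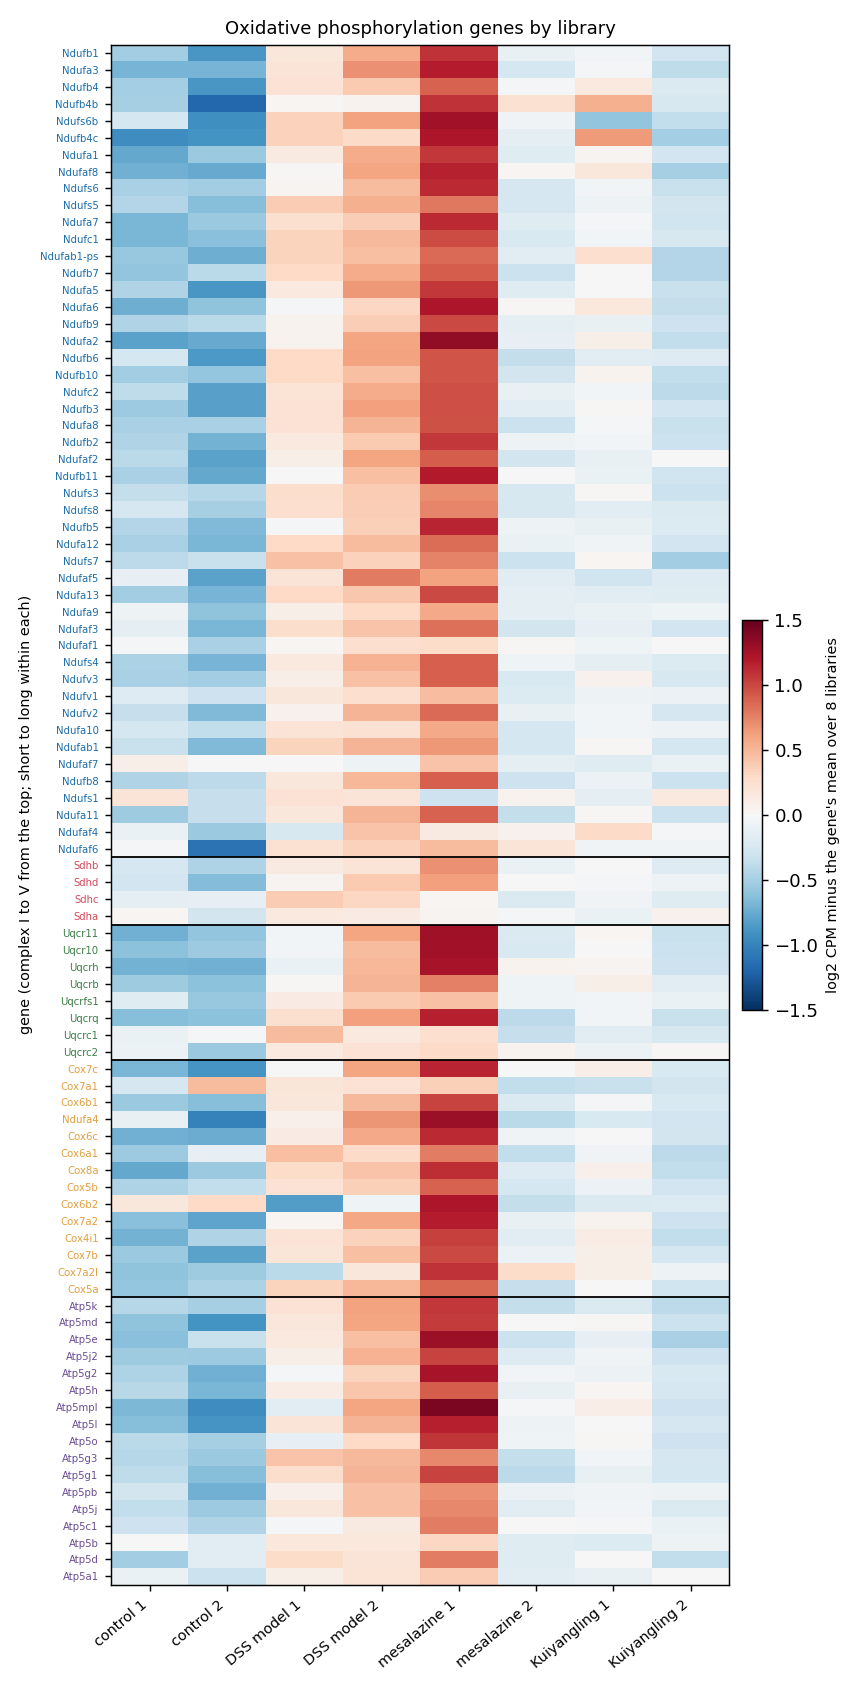
Heat map of 91 of the 92 tested members (rows, ordered by complex and from short to long within each) in the 8 libraries (columns), as log2 CPM minus the gene's mean over the libraries. The first mesalazine library is the reddest column (red above the gene's mean, blue below) and held the highest value of the 8 for 85 of all 92 members, and the controls are mostly blue.

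The complexes are described first without any correction for gene length. Complex I had 37 of 37 structural subunits with an estimate above 0 in the DSS model against the controls, with a median log2 difference of 0.86. The 30 accessory subunits, which surround the catalytic core, had a median of 0.92, and the 7 core subunits, which carry the electron path, had a median of 0.72. Ndufa3, one of the shortest, stood at 60.6 and 60.4 CPM in the controls, 112 and 158 in the DSS model, 221 and 81.7 with mesalazine, and 96.9 and 74.97 with Kuiyangling. Both DSS animals were well above both controls, a log2 difference of 1.16 ± 0.42 (SE; edgeR adjusted p = 0.273). Ndufa2, another small accessory subunit, was at 1.13 ± 0.44 (adjusted p = 0.283). Ndufa12 had the smallest p of the complex, with 69.0 and 60.0 CPM in the controls against 119 and 134 in the DSS model, a log2 difference of 0.98 ± 0.33 (adjusted p = 0.235). Ndufs1, the large iron-sulfur subunit of the core, had the lowest estimate at 0.26 ± 0.29 (adjusted p = 0.664). It stood at 168 and 116 CPM in the controls, 171 and 168 in the DSS model, 119 and 153 with mesalazine, and 133 and 163 with Kuiyangling. The first control and the second DSS animal were close together for Ndufs1, and the first mesalazine library was among the lowest.

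The flavin-bearing core subunit Ndufv1 had 208 and 191 CPM in the controls and 268 and 282 in the DSS model, 0.46 ± 0.29 on the log2 scale (edgeR adjusted p = 0.443). Ndufab1 serves both as a complex I subunit and as the mitochondrial acyl carrier protein of fatty acid and lipoate synthesis. Its CPM was 110 and 87.3 in the controls, 174 and 195 in the DSS model, 216 and 115 with mesalazine, and 139 and 115 with Kuiyangling, and its log2 difference in the DSS model was 0.91 ± 0.33 (adjusted p = 0.272). Ndufab1 has a processed copy, Ndufab1-ps, and reads could be split between them; the same holds for Ndufb4 with Ndufb4b and Ndufb4c and for Ndufs6 with Ndufs6b, so their values are uncertain.

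Complex I assembly factors, which build the complex without staying in it, had a median log2 difference of 0.74 over 8 genes. Ndufaf8 was at 1.07 ± 0.40 (edgeR adjusted p = 0.275) and Ndufaf7, a mitochondrial methyltransferase, at -0.09 ± 0.27 (adjusted p = 0.887). Ndufaf7 varied little apart from the first mesalazine library, at 23.1 and 21.7 CPM in the controls, 21.6 and 20.6 in the DSS model, 29.3 and 19.8 with mesalazine, and 19.2 and 20.2 with Kuiyangling. It was 1 of the 2 tested members whose estimate lay below 0.

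Complex II, which also runs a step of the citric acid cycle, had the smallest uncorrected difference of the 5 complexes, with a median of 0.50 over its 4 subunits. Sdha, the flavin-bearing catalytic subunit, stood at 488 and 396 CPM in the controls, 529 and 521 in the DSS model, 494 and 471 with mesalazine, and 448 and 502 with Kuiyangling. The groups lay close together for Sdha, and its log2 difference in the DSS model was 0.25 ± 0.27 (edgeR adjusted p = 0.661). The iron-sulfur subunit Sdhb was at 269 and 233 CPM against 353 and 366 (0.52 ± 0.31, adjusted p = 0.429). The membrane anchor Sdhd was at 358 and 278 CPM against 451 and 576 (0.69 ± 0.31, adjusted p = 0.341). The other anchor, Sdhc, was at 240 and 245 CPM in the controls, 348 and 330 in the DSS model, 272 and 229 with mesalazine, and 256 and 235 with Kuiyangling. Both DSS animals were above all 6 other animals for Sdhc, and its difference from the controls was 0.48 ± 0.26 (adjusted p = 0.385).

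Complex III had 8 of 8 estimates above 0 and a median log2 difference of 0.84. Its small subunits gave the larger values: Uqcrh stood at 282 and 280 CPM in the controls, 431 and 652 in the DSS model, 1082 and 478 with mesalazine, and 474 and 370 with Kuiyangling. The log2 difference of Uqcrh in the DSS model was 0.95 ± 0.40 (edgeR adjusted p = 0.32), and that of Uqcrb, which helps to bind ubiquinone, was 0.86 ± 0.34 (adjusted p = 0.287). Uqcrc1 and Uqcrc2 are the large core proteins that face the matrix. Uqcrc1 was at 365 and 389 CPM in the controls, 544 and 433 in the DSS model, 467 and 308 with mesalazine, and 350 and 331 with Kuiyangling, a difference of 0.38 ± 0.30 in the DSS model (adjusted p = 0.537). Uqcrc2 was at 0.48 ± 0.29 (adjusted p = 0.423), and the Rieske iron-sulfur protein Uqcrfs1 at 0.63 ± 0.30 (adjusted p = 0.357).

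Complex IV had the largest uncorrected median, 0.94 over 13 tested subunits, with 12 estimates above 0. Cox6c, with the smallest p of the complex, stood at 326 and 319 CPM in the controls, 584 and 794 in the DSS model, 1170 and 517 with mesalazine, and 533 and 444 with Kuiyangling. All 6 DSS-treated animals were above both controls for Cox6c, and its log2 difference in the DSS model was 1.10 ± 0.39 (edgeR adjusted p = 0.268). Cox8a was at 462 and 533 CPM against 948 and 1056 (1.01 ± 0.42, adjusted p = 0.307), Cox4i1, a regulatory subunit, at 0.85 ± 0.40 (adjusted p = 0.353) and Cox6a1 at 0.69 ± 0.39 (adjusted p = 0.412). Ndufa4, once counted to complex I, was at 178 and 95.1 CPM in the controls and 201 and 304 in the DSS model, 0.89 ± 0.51 (adjusted p = 0.413). The controls differed by more from each other for Ndufa4 than the first control did from the first DSS animal.

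Complex V had 17 of 17 estimates above 0 and a median log2 difference of 0.78. Atp5md, a small subunit of the membrane part, had the smallest p of all 92 members: 107 and 87.3 CPM in the controls, 182 and 245 in the DSS model, 336 and 162 with mesalazine, and 164 and 130 with Kuiyangling. Both DSS animals and all 4 treated animals were above both controls for Atp5md, and its log2 difference in the DSS model was 1.13 ± 0.37 (edgeR adjusted p = 0.223). The catalytic subunits of the F1 head gave small values. Atp5b, the beta subunit, stood at 1898 and 1686 CPM in the controls, 2118 and 2121 in the DSS model, 2345 and 1676 with mesalazine, and 1642 and 1802 with Kuiyangling, a difference of 0.24 ± 0.32 (adjusted p = 0.716). Atp5a1, the alpha subunit, was at 0.35 ± 0.32 (adjusted p = 0.594), while Atp5g3, which encodes the c subunit of the rotating ring, was at 569 and 521 CPM against 1032 and 1073 (0.95 ± 0.37, adjusted p = 0.283).

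**Figure D2:**
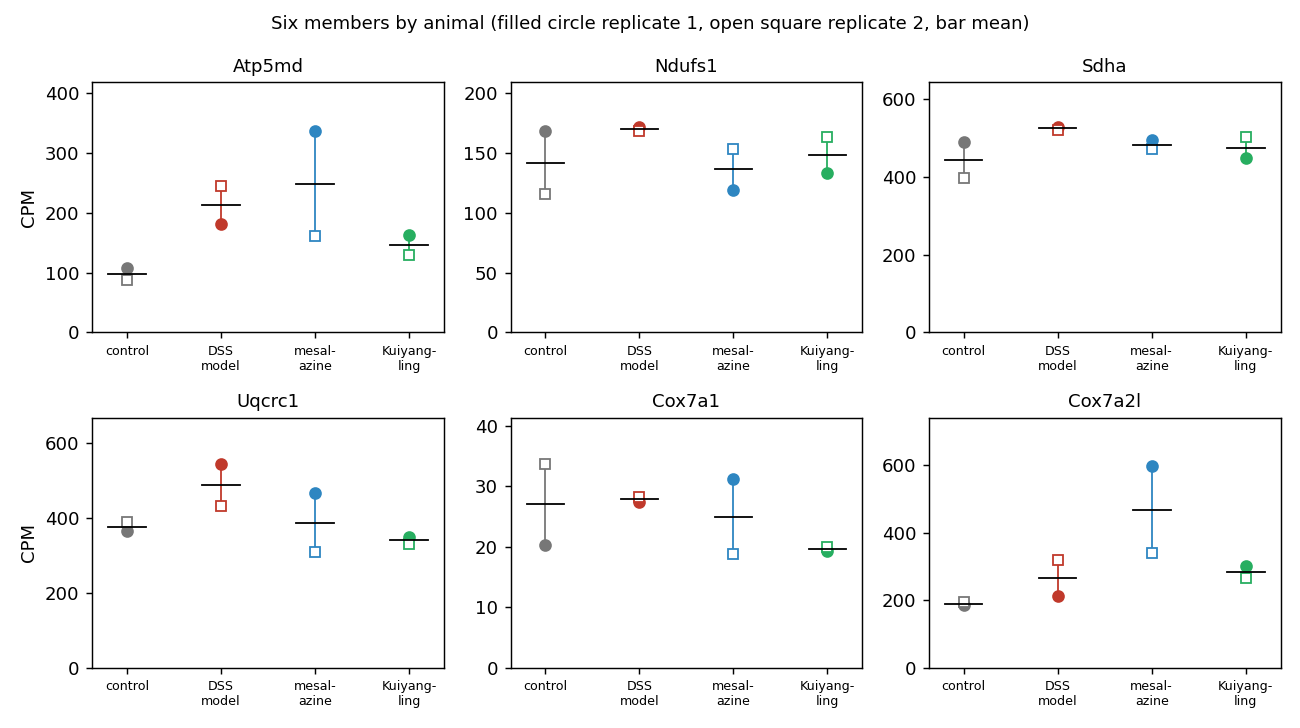
CPM (y axis, from 0) of Atp5md, Ndufs1, Sdha, Uqcrc1, Cox7a1 and Cox7a2l in each animal of the 4 groups (x axis); a filled circle is replicate 1, an open square replicate 2 and the black bar their mean. Atp5md and Cox7a2l reach their highest value in the first mesalazine library (336 and 597 CPM), whereas Ndufs1 is at 119 CPM there.

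These values tended to be lower in longer members. The members are short genes: the length implied by the deposited counts and FPKM had a median of 783.5 bases over the members, from 320 to 4309, against 3310 over all genes, so that the members' median lay at the 4.0th percentile. Over the 92 members, the log2 difference between DSS model and control had a Spearman correlation of -0.565 with length; the points share the same 4 libraries. The 53 tested members under 1000 bases had a median of 0.94, and the 24 of 1500 bases or more had a median of 0.55. The large catalytic subunits Ndufs1 (2654 bases), Sdha (2859) and Atp5b (1879) were among the longest and had the small values given above. Cox7a1 (460 bases) and Cox6b2 (606) were short and yet among the lowest of the members. The part of length in these values was not tested.

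**Figure D3:**
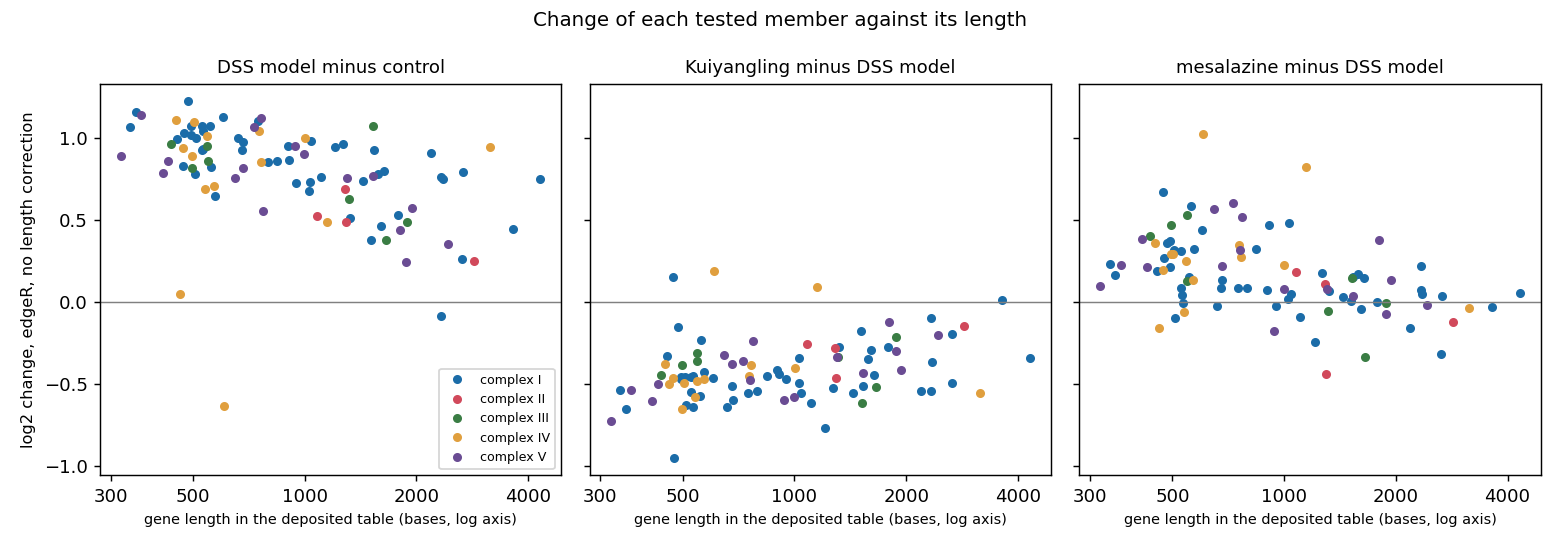
Log2 difference of each of the 92 tested members (y axis, edgeR without length correction) against gene length in bases (x axis, log scale), coloured by complex, for the DSS model against control, Kuiyangling against the DSS model and mesalazine against the DSS model. In the first panel short members tend to lie higher than long ones, with Cox7a1 and Cox6b2 among the exceptions. In the second the points lie below 0 for 88 of 92 members.

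A relation with length was also present over the whole table, though not with the same strength as among the members in every library. Over genes of all kinds, the correlation of a library's level (relative to the mean of all 8) with length was 0.497 and 0.304 in the controls, -0.098 and -0.484 in the DSS model, -0.576 and 0.322 with mesalazine, and -0.040 and 0.417 with Kuiyangling. Over 91 members it was, in the same order, 0.574 and 0.346, 0.074 and -0.452, -0.663 and 0.084, and -0.210 and 0.543. A smooth curve of that relation over all 13381 genes, read at the members' median length, lay at -0.43 and -0.43 (log2) in the controls, 0.08 and 0.35 in the DSS model, 0.83 and -0.16 with mesalazine, and -0.003 and -0.25 with Kuiyangling. The members' own medians relative to the same mean were -0.46 and -0.60, 0.17 and 0.44, 0.93 and -0.16, and -0.04 and -0.27. The members thus lay near the curve for genes of their length in each library, and furthest from it, below it, in the second control. They lay above it in both DSS model libraries and the first mesalazine library, and at or below it in the others.

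With that curve taken out library by library, the median difference between DSS model and control was 0.20, with 79 of 92 estimates above 0, where 49.6% of all genes were. The DSS animals then lay above both controls for 47 members and below both for 7, against 24.3% and 22.3% of all genes. edgeR called 0 members, with 0.239% of all genes called, and at an unadjusted p under 0.05 it had 8 members higher and 2 lower, against 7.23% and 7.05%. By complex, the corrected medians were 0.24 for complex I, 0.15 for II, 0.11 for III, 0.18 for IV and 0.19 for V. The complexes lay closer together than before and in another order, with complex I the highest and III the lowest. With the GENCODE lengths described next, II stood with I at 0.35. Among the members a relation with length remained, in the opposite direction. The Spearman correlation of the log2 difference with length was -0.565 before the correction and 0.558 after it. The SD of the differences over the members was 0.298 before and 0.311 after. The part of length in the corrected order of the complexes was not tested. Library by library, the corrected median over the members relative to the controls was 0.21 and 0.19 in the DSS model, 0.18 and 0.11 with mesalazine, and 0.11 and 0.11 with Kuiyangling, and the controls themselves were at 0.08 and -0.08. The corrected difference was thus close to the distance between the 2 controls, and 62 of 92 members were lower in the second control than in the first, as were 52.1% of all genes.

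**Figure D4:**
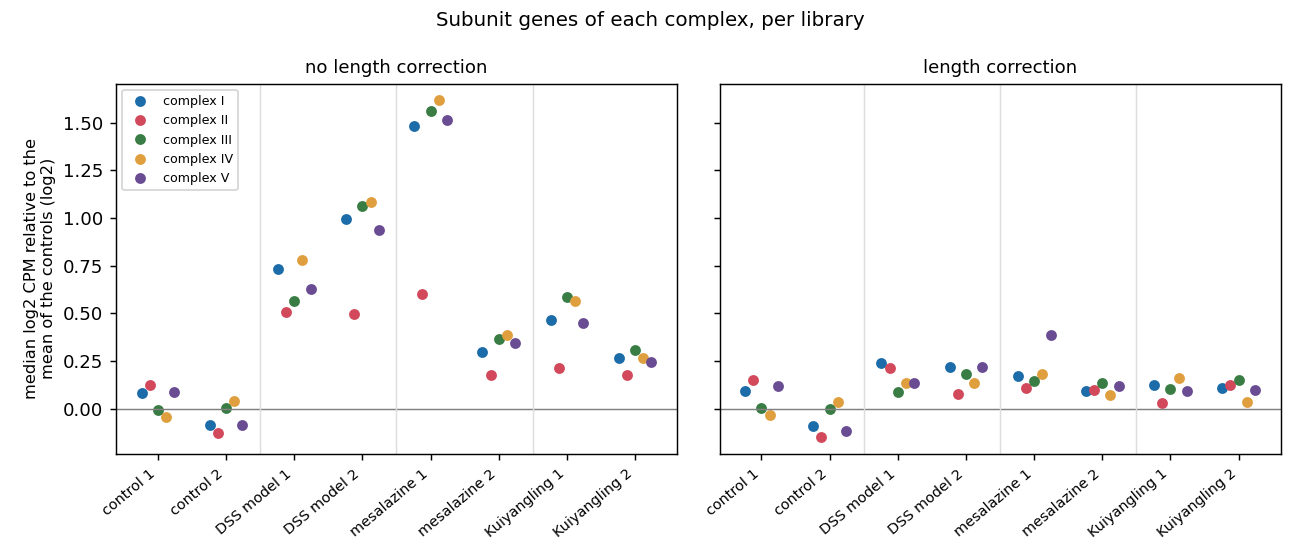
Median log2 CPM over the tested structural subunits of each complex in each library (x axis), relative to the mean of the controls (y axis, log2), without length correction on the left and with it on the right. On the left the first mesalazine library reaches 1.62 for complex IV and complex II is the lowest in every DSS-treated library; on the right all points of the DSS-treated libraries lie between 0.03 and 0.39.

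Members that stood out after the length correction included Ndufab1 at 0.75 ± 0.26 (edgeR adjusted p = 0.261), Cox5a at 0.95 ± 0.35 (adjusted p = 0.286) and Uqcrq at 0.75 ± 0.31 (adjusted p = 0.326). The deposited length was 3153 bases for Cox5a and 1525 for Uqcrq, where the median coding transcript of GENCODE M21 has 645 and 504 bases. In all, 7 of the 87 members matched to GENCODE were over 2 times longer in the deposited table. With the GENCODE lengths in the curve, the members' median difference between DSS model and control was 0.31, and the correlation with deposited length, 0.558 after the first correction, was 0.240.

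Kuiyangling animals had lower levels of the members than DSS model animals, with no member past the test. The median log2 difference was -0.46, against 0.003 over all genes, and 88 of 92 estimates lay below 0, as did 49.7% of all genes. Both Kuiyangling animals were below both DSS animals for 76 members and above both for 0, where 21.1% of all genes were lower and 21.9% higher in that sense. edgeR called 0 members and 0% of all genes, and at an unadjusted p under 0.05 it had 0 members, against 1.98% of all genes higher and 1.58% lower. DESeq2 and limma called 0 members and 0.0972% and 0% of all genes, with 0 members under the unadjusted threshold in each, against 3.79% and 3.59% of all genes. For 54 members both Kuiyangling animals lay between the groups, above both controls and below both DSS animals, as did 6.46% of all genes.

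By complex, the medians of Kuiyangling against the DSS model were -0.50 for complex I, -0.27 for II, -0.37 for III, -0.47 for IV and -0.42 for V. All 37 subunits of complex I, 4 of complex II, 8 of complex III and 17 of complex V had estimates below 0, as did 12 of 13 in complex IV. Atp5k, subunit e of the membrane part of complex V, stood at 148 and 193 CPM in the DSS model and at 109 and 96.6 with Kuiyangling, close to the controls at 94.3 and 89.9. Its log2 difference was -0.73 ± 0.41 (edgeR adjusted p = 0.996). Ndufaf5, an assembly factor that modifies Ndufs7, had the smallest p, with 15.5 and 23.3 CPM in the DSS model against 10.96 and 11.8 (-0.77 ± 0.37, adjusted p = 0.996). The 4 exceptions were Cox6b2 at 0.19 ± 0.60, Ndufb4b at 0.15 ± 0.55, Cox7a2l at 0.09 ± 0.34 and Ndufaf4 at 0.01 ± 0.30 (adjusted p = 0.999 for each).

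After the length correction the median of Kuiyangling against the DSS model was -0.12, with 75 of 92 estimates below 0, where 50.1% of all genes were, and 0 members called. At an unadjusted p under 0.05 there were 0 members, against 2.11% of all genes higher and 2% lower. Both Kuiyangling animals were then below both DSS animals for 42 members and above both for 5, against 20.1% and 21.1% of all genes. For 17 members, down from 54, they lay above both controls and below both DSS animals, as did 4.61% of all genes. The corrected medians were -0.16 for complex I, -0.08 for II, -0.02 for III, -0.07 for IV and -0.12 for V.

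Against the controls, Kuiyangling animals had a median of 0.38 over the members, with 87 of 92 estimates above 0, as were 49.3% of all genes. Both lay above both controls for 69 members and below both for 4, against 25.9% and 23.2% of all genes. edgeR called 0 members where 0.239% of all genes were called, and had 0 members at an unadjusted p under 0.05, against 5.07% higher and 5.22% lower. DESeq2 called 0, also with 0 under that threshold, where it called 2.71% of all genes and had 10.4% under the threshold. Ndufb4, an accessory subunit of complex I, had the smallest p, with 54.0 and 42.2 CPM in the controls and 85.4 and 66.5 with Kuiyangling (0.66 ± 0.34, edgeR adjusted p = 0.581). After the length correction the median was 0.10, with 68 estimates above 0, against 50.3% of all genes, and 31 members above and 12 below both controls, against 25% and 21.8%. edgeR then called 0 members and 0.321% of all genes, and at an unadjusted p under 0.05 had 0 members higher and 1 lower (Cox7a1), against 5.76% and 5.81%. Both treated groups and the DSS model are set against the same 2 controls, so these values are not independent of those above.

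The 2 mesalazine libraries went opposite ways against the DSS model and are given apart. The first was above both DSS animals for 86 of 92 members, and the second was below both for 81, where all genes gave 40.2% and 36.8%. Relative to the mean of the DSS model, the members' median was 0.58 (log2) in the first library and -0.47 in the second, close to the Kuiyangling libraries at -0.32 and -0.58. The group median was 0.14. It was -0.48 without the first library and 0.57 without the second, so the mean of the pair describes neither animal. Of the 92 estimates, 71 lay above 0, as did 54.3% of all genes, and both libraries lay above both DSS animals for 2 members and below both for 3, against 14% and 13.8%. edgeR called 0 members and 0% of all genes, with 1 member higher (Cox7a2l) and 0 lower at an unadjusted p under 0.05, against 2.73% and 2.77% of all genes. DESeq2 and limma on log2(FPKM + 1) called 0 members and 0.667% and 0% of all genes, with 1 and 2 members under that threshold, against 6.23% and 5.12% of all genes.

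The 5 complexes shared this split. The first mesalazine library stood, relative to the controls, at 1.48 (log2 median) for complex I, 0.60 for II, 1.56 for III, 1.62 for IV and 1.52 for V, and the second at 0.30, 0.18, 0.37, 0.38 and 0.35. Atp5mpl, a small proteolipid of complex V, showed it at 611 and 225 CPM, with 205 and 345 in the DSS model and 143 and 120 in the controls (0.60 ± 0.45 against the DSS model, edgeR adjusted p = 1.0). Ndufa6 was at 737 and 322 CPM, against 313 and 394 in the DSS model (0.59 ± 0.39, adjusted p = 0.983). Some members did not share the high level of the first library: Ndufs1 was at 119 and 153 CPM (-0.32 ± 0.29, adjusted p = 1.0) and Sdhc at 272 and 229 (-0.44 ± 0.26, adjusted p = 0.954), below both DSS animals in each case.

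After the length correction the 2 mesalazine libraries lay at 0.18 and 0.11 relative to the controls, and the group median against the DSS model was -0.03, with 36 estimates above 0 where 52.6% of all genes were. edgeR called 0 members and 0% of all genes, with 1 member higher (Cox7a2l) and 0 lower at an unadjusted p under 0.05, against 3.81% and 3.77%. Both libraries lay above both DSS animals for 10 members and below both for 28, against 17.6% and 16.5% of all genes. The first library was then above both DSS animals for 38 members and below both for 36, where all genes gave 39.3% and 36.3%. The second was below both for 56 and above both for 19, where all genes gave 35.5% and 36.0%. By complex, the corrected medians of the group were -0.10 for I, -0.03 for II, -0.004 for III, -0.005 for IV and -0.02 for V.

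Cox7a2l was 1 of the 2 members for which both mesalazine animals lay above both DSS animals. The other was the gene copy Ndufb4b, at 3.26 and 1.81 CPM against 1.57 and 1.59, with 220 counts in all. Cox7a2l stood at 186 and 194 CPM in the controls, 213 and 319 in the DSS model, 597 and 341 with mesalazine, and 300 and 267 with Kuiyangling. Its highest value was in the first mesalazine library, as for most members, and the Kuiyangling animals lay within the range of the DSS pair. Its log2 difference between mesalazine and the DSS model was 0.82 ± 0.34 (edgeR adjusted p = 0.823) before and 0.71 ± 0.21 (adjusted p = 0.418) after the length correction, so Cox7a2l had the smallest p of the members in this comparison under both settings. Against the controls it was at 1.30 ± 0.34 (adjusted p = 0.101).

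Mesalazine against control had the largest uncorrected median of the 6 comparisons, 0.99, and no member passed edgeR's test. Of the 92 estimates, 90 lay above 0, as did 49.1% of all genes, and both mesalazine animals were above both controls for 73 members and below both for 0, against 23.6% and 22.1%. edgeR called 0 members, with 0.673% of all genes called, and had 65 members higher and 0 lower at an unadjusted p under 0.05, against 11.7% and 8.27% of all genes. DESeq2 called 30 members and 7.53% of all genes, and edgeR without a filter on low counts called 28 of 94 members and 6.28% of all genes; the members called were all higher with mesalazine. limma on log2(FPKM + 1) called 0 members and 0.0822% of all genes. At the unadjusted threshold, DESeq2 had 70 members and limma 34, against 20.7% and 18.3% of all genes. edgeR with the filter called 73 members without the second mesalazine library, where it called 19.6% of all genes, and 0 without the first, with 0.0288% of all genes, and the median was 1.48 and 0.36. After the length correction the median was 0.14, with 69 estimates above 0 (51% of all genes) and 36 members above and 14 below both controls (22.9% and 19.9%). In that fit edgeR called 0 members, with 15 higher and 2 lower at an unadjusted p under 0.05, against 9.54% and 7.9% of all genes, and 0.441% of all genes called. Without the second mesalazine library the corrected fit called 4 members and 4.77% of all genes. The members were Cox5a, Ndufa11, Ndufb8 and Uqcrq, of which Cox5a, Ndufa11 and Uqcrq have a deposited length over 2 times that of GENCODE. In these fits the lone remaining mesalazine library is assumed to vary like the other groups.

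Set side by side, the treated groups differed in the median by -0.61 (Kuiyangling against mesalazine), with 90 of 92 estimates below 0, as were 49.8% of all genes, and edgeR called 0 members and 0% of all genes. Both Kuiyangling animals were below both mesalazine animals for 14 members and above both for 0, against 11.6% and 10.6% of all genes. At an unadjusted p under 0.05, 0 were higher and 3 lower, against 0.56% and 1.34%, and DESeq2 called 0 members and 0% of all genes, with 20 members under that threshold against 2.65% of all genes. Without the first mesalazine library the median was 0.03. After the length correction it was -0.06, with 61 estimates below 0 (50.6% of all genes), 11 members above and 21 below (11.3% and 13.8%), and 0 called, with 0 under the unadjusted threshold (0.717% of all genes higher and 0.957% lower).

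Tissue-specific forms of complex IV subunits were compared with their common forms per length. Cox7a1, the form of heart and skeletal muscle, was the one with a sizeable share: its FPKM was 15.6% and 29.1% of that of Cox7a2 in the controls, 13.4% and 9.40% in the DSS model, 6.85% and 10.1% with mesalazine, and 9.27% and 12.4% with Kuiyangling. The controls had the highest shares, with all 6 DSS-treated animals below both. The level of Cox7a1 itself was highest in the second control and lowest in the second mesalazine and both Kuiyangling libraries, at 20.3 and 33.7 in the controls, 27.4 and 28.2 in the DSS model, 31.1 and 18.8 with mesalazine, and 19.3 and 20.0 with Kuiyangling, while Cox7a2 was at 213 and 190 CPM in the controls and 335 and 492 in the DSS model. The log2 difference of Cox7a1 between DSS model and control was 0.05 ± 0.33 (edgeR adjusted p = 0.952) before and -0.84 ± 0.32 (adjusted p = 0.289) after the length correction. With mesalazine against control it was -0.11 before and -1.24 ± 0.32 (edgeR adjusted p = 0.106) after. Smooth muscle markers summed to 210 and 127 CPM in the controls and 96.5 to 161 CPM in the other libraries, and 9 of 11 skeletal muscle markers to 6.28 to 14.9 CPM, with 33.9 CPM in the second control; their part in the level of Cox7a1 was not tested.

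Cox6b2, best known from testis, was the other tested member with an estimate below 0 in the DSS model. It had 2.03 and 2.22 CPM in the controls, 1.01 and 1.72 in the DSS model, 4.18 and 1.40 with mesalazine, and 1.55 and 1.56 with Kuiyangling, and it amounted to 0.157% to 0.608% of Cox6b1 in FPKM. The log2 difference of Cox6b2 in the DSS model was -0.64 ± 0.60 (edgeR adjusted p = 0.606) before and -1.42 ± 0.45 (adjusted p = 0.227) after the length correction. At 257 counts in all, its values are coarse. Ndufa4l2, known as a gene that hypoxia induces, had 26 counts over the 8 libraries against 27747 for Ndufa4, and Cox4i2, another form linked to low oxygen, had 11 against 143841 for Cox4i1. A difference between groups in either was not detectable at this depth.

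Genes that work beside the complexes were taken from lists of textbook members, and none passed the test in any comparison. Of 40 other assembly factors, 0 were called between DSS model and control, with 35 estimates above 0 and a median log2 difference of 0.37 (0.23 after the length correction). Uqcc2, which helps to make cytochrome b of complex III, had the smallest p of that list, with 22.6 and 18.8 CPM in the controls and 43.8 and 59.0 in the DSS model (1.31 ± 0.42, edgeR adjusted p = 0.223). The 78 genes of the mitochondrial ribosome had 78 estimates above 0 and a median of 0.63 (0.20 corrected), and the 24 import, channel and chaperone genes had 23 above 0 and a median of 0.52 (0.30 corrected). The 16 genes of the citric acid cycle and pyruvate dehydrogenase had a median of 0.24 (0.10 corrected). The 14 core proteasome genes, which are short but lie outside mitochondria, had a median of 0.76 (0.24 corrected), close to the members' own 0.85 and 0.20. At an unadjusted p under 0.05, these 5 lists had 8, 22, 5, 0 and 7 genes higher and 0 lower, against 7.63% and 7.22% of all genes. Between DSS model and control, 47.5% of all genes had an estimate above 0 and 0.247% were called.

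Further genes outside the naming rule belong to the same machinery. Cytochrome c, Cycs, carries electrons from complex III to IV and stood at 254 and 201 CPM in the controls, 381 and 502 in the DSS model, 418 and 300 with mesalazine, and 347 and 277 with Kuiyangling. All 6 DSS-treated animals were above both controls for Cycs, and its log2 difference in the DSS model was 0.95 ± 0.31 (edgeR adjusted p = 0.222), and also 0.95 after the length correction. Atpif1, the inhibitor of ATP synthase, was at 188 and 137 CPM against 312 and 380 (1.09 ± 0.37, adjusted p = 0.244). Cyc1, the cytochrome c1 of complex III, was at 380 and 378 CPM against 510 and 513 (0.43 ± 0.31, adjusted p = 0.493). Unlike Cycs, these genes had smaller differences after the length correction, 0.78 for Atpif1 and 0.13 for Cyc1.

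Regulators of mitochondrial genes gave a median that turned with the length correction. Of 17 regulators, 6 had estimates above 0 between DSS model and control, against 47.5% of all genes, with a median of -0.12 (0.11 after the length correction). edgeR called 0 of them and 0.247% of all genes. At an unadjusted p under 0.05, 0 were higher and 1, Ppargc1a, was lower, against 7.63% and 7.22% of all genes. A count of 1 lower among 17 is near the share over all genes. Ppargc1a encodes PGC-1α, the coactivator that drives the making of mitochondria. It stood at 41.1 and 47.4 CPM in the controls, 16.1 and 11.8 in the DSS model, 15.9 and 40.2 with mesalazine, and 27.4 and 30.5 with Kuiyangling. Both DSS animals and the first mesalazine library were below the other 5 libraries. The log2 difference of Ppargc1a in the DSS model was -1.66 ± 0.40 (edgeR adjusted p = 0.135), and -1.26 after the correction (adjusted p = 0.123). Kuiyangling and mesalazine were higher than the DSS model by 1.05 ± 0.40 (adjusted p = 0.996) and 1.01 ± 0.40 (adjusted p = 0.809). At 15903 bases Ppargc1a is a long gene.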

How the data were processed

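Colonic mucosa RNA of 8 mice was sequenced with a stranded mRNA kit, per the labels' protocols. The authors deposited raw counts per gene and FPKM per gene. Trimmomatic and HISAT2 are named in the submitters' processing notes, and the genome build, annotation and counter are not given in the sources used here. The deposited FPKM were the counts divided by gene length and library total within 1.9e-13, so the length was taken from them. Counts were tested with edgeR 4.0.16 in R 4.3.3 (quasi-likelihood, TMM scaling, filterByExpr by group, all 8 libraries in 1 fit, 13381 genes), with Benjamini-Hochberg adjustment over all genes and a threshold of 0.05; the common biological coefficient of variation was 0.287. CPM are scaled by TMM. The length correction takes, per library, a smooth curve (6 degrees of freedom) of the log2 ratio to the mean library against log2 length over all genes tested, and enters it as an offset. Alternatives were DESeq2 1.42.0, limma 3.58.1 on log2(FPKM + 1) or log2(FPKM + 0.1), other size factors, no low-count filter, a replicate block, single comparisons, left-out libraries and GENCODE M21 lengths, the last chosen after seeing the data. The fit and the length correction were run on simulated data, with and without a length bias that was linear in log2 length. The deposited lengths were taken as correct there, so that simulation cannot show how wrong lengths act on the correction.

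Members, gene lists and motifs were chosen with earlier results of these data known. Members were named in full by rule: the 3 highest in FPKM per complex, the smallest p and the extreme log2 differences (members with a mean of at least 5 CPM) in the first 3 comparisons, and a panel of catalytic subunits and isoforms; others in the text were chosen after their values were seen. The values of 1 tested member are not reported here, though it is in the counts and medians. A column labelled with a misspelled mesalazine name was matched to the second mesalazine animal by its title. The p-values of the fit on all 8 libraries set each difference against the spread between animals within groups, pooled over the 4 groups.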

Additional observations from a re-analysis of the deposited data

How the results depend on the processing

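No member passed edgeR's test in any of the 6 comparisons, and the calls that other settings gave were these. Between mesalazine and control, DESeq2 called 30 members (7.53% of all genes) and edgeR without a filter on low counts called 28 (6.28%), and leaving out 1 library gave 0 to 73, with 73 without the second mesalazine library (19.6%); the cause was not tested. Between DSS model and control, leaving out 1 library gave 0 to 1 called, namely Ndufc1 without either mesalazine library (log2 1.08, adjusted p = 0.0495, and 1.07, adjusted p = 0.0479), where 1.1% and 1.14% of all genes were called. With the length correction, Cox7a1 was called between mesalazine and control without the first control (log2 -1.56, adjusted p = 0.0333), as were 3.52% of all genes.

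The median over the members kept its direction between DSS model and control under every setting. It was 0.20 with the length correction, 0.31 with GENCODE lengths and 0.68 in limma on log2(FPKM + 1) or log2(FPKM + 0.1), against 0.85 in edgeR. For Kuiyangling against the DSS model the 2 length settings gave -0.12 and -0.16, for Kuiyangling against control 0.10 and 0.14, and for mesalazine against control 0.14 and 0.23. Mesalazine against the DSS model reversed, at -0.027 and -0.030. By complex, the length correction gave 0.24, 0.15, 0.11, 0.18 and 0.19 for complexes I to V between DSS model and control, and GENCODE lengths gave 0.35, 0.35, 0.20, 0.31 and 0.21. For Kuiyangling against the DSS model they gave -0.16, -0.075, -0.019, -0.073 and -0.12, and -0.24, -0.14, -0.079, -0.14 and -0.16. For mesalazine against the DSS model, complexes I, III, IV and V reversed, to -0.10, -0.0040, -0.0048 and -0.018 with the length correction and -0.11, -0.046, -0.052 and -0.012 with GENCODE lengths. limma gave 0.69, 0.34, 0.77 and 0.62 for complexes I, II, IV and V between DSS model and control with either pseudocount, -0.13 for complex II with Kuiyangling, and -0.0185 and -0.0188 for complex I with mesalazine, a reversal. limma's FPKM scale also shifted the median of all genes, by -0.12 with log2(FPKM + 1) and -0.18 with log2(FPKM + 0.1) between DSS model and control. Against the DSS model, that median was 0.088 and 0.14 for Kuiyangling and -0.0092 and -0.0225 for mesalazine.

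Animals share replicate numbers across groups, but the labels do not tie them, and deviations of same-numbered animals correlated at -0.311 to 0.162, so the numbers were not taken as pairs. A replicate block alone changed no member's call, and it raised the calls over all genes from 33 to 50 between DSS model and control and from 32 to 65 between Kuiyangling and control. The replicate block with length correction gave 0.20, -0.11, -0.046, 0.11 and 0.14 for the members (DSS model against control, Kuiyangling and mesalazine against the DSS model, and Kuiyangling and mesalazine against control). By complex it gave 0.25, 0.15, 0.10, 0.18 and 0.20 between DSS model and control, -0.16, -0.0745, -0.017, -0.087 and -0.11 with Kuiyangling, and reversals of -0.10, -0.029, -0.075 and -0.022 for complexes I, III, IV and V with mesalazine.

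Leaving out 1 library at a time, with and without the length correction, the members' median ran from 0.16 to 0.98 between DSS model and control, -0.61 to -0.12 for Kuiyangling and -0.48 to 0.57 for mesalazine against the DSS model, 0.050 to 0.48 and 0.10 to 1.48 for the same against control, and -1.07 to 0.028 between them. For complexes I to V between DSS model and control it ran from 0.22 to 0.99, 0.075 to 0.54, 0.10 to 1.07, 0.12 to 1.09 and 0.11 to 0.93. For Kuiyangling against the DSS model it ran from -0.67 to -0.16, -0.36 to -0.039, -0.58 to 0.033, -0.67 to -0.031 and -0.61 to -0.0895, and for mesalazine from -0.51 to 0.56, -0.26 to 0.14, -0.42 to 0.60, -0.56 to 0.74 and -0.41 to 0.63. The lone library left in a group is assumed there to vary like the others.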
